A study of Homo sapiens with 14 samples.

Results

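A set of 10 genes of retinoid and aldehyde metabolism were followed across 22Rv1 prostate cancer cells in which the transcription factor FOXA1 had been knocked down, degraded or mutated. They are ALDH1A1, ALDH1A2, ALDH1A3, ALDH3A2, ALDH3B2, RDH10, RDH11, DHRS3, RARB and RARG, 10 of the 57904 features in the knockdown count table, and each has a row in all 4 deposited tables. The genes were picked by name with their changes in these libraries already known. Their counts, levels and changes are therefore given as a description with no test, and whether each met the rule used for calling a gene changed is reported only as part of that description.

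22Rv1 is a human prostate carcinoma line, and FOXA1 is a pioneer factor, a protein that can bind closed chromatin and on which luminal prostate cells depend. The series concerns how such factors bear on the loading of cohesin and on chromosome folding. The 14 RNA-seq libraries form 7 groups of 2. The shCtrl and shFOXA1 groups carry wild-type FOXA1 and were given a control lentivirus or a lentivirus against FOXA1. The dTAG_0h, dTAG_1h and dTAG_24h groups carry FOXA1 fused to a degron tag, by which a small molecule marks the protein for destruction, and are labelled 0, 1 and 24 h. The WT and R219S groups also carry the FOXA1 degron fusion, and the R219S genotype label adds an R219 mutation. The treatment label gives dTAG or DMSO, a vehicle, for all degron libraries jointly, so whether any WT or R219S library was exposed to degrader is not stated. It names no vehicle group for 24 h, no hairpin sequence and no number of clones. The titles of the shCtrl libraries read 22Rv2, while their cell line label reads 22Rv1. Nothing in the labels says that the libraries of a group came from separate cultures, so errors and p-values measure the spread between these libraries, which may be technical.

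Retinoic acid is made from vitamin A in consecutive oxidations. Retinol dehydrogenases such as RDH10 form retinaldehyde, and the ALDH1A enzymes oxidise it irreversibly to retinoic acid, while DHRS3 and RDH11 can reduce retinaldehyde back to retinol. Retinoic acid then binds RARA, RARB or RARG, which pair with RXR receptors on DNA, and CYP26 enzymes break it down. ALDH3A2 and ALDH3B2 belong to the same enzyme superfamily but act on fatty aldehydes. In the prostate, ALDH1A1 is widely used as a stem and progenitor cell marker, and RDH11 was described early on as an androgen-regulated prostate reductase.

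ALDH1A1 and ALDH1A3 moved most in these libraries, in opposite directions, and their start-site sequences are shown because they also differ in make-up. RefSeq windows on GRCh38.p14, from 250 bases before to 50 after a transcript start, were used for 8 of the genes, 15 windows in all. Capitals mark CG pairs, and both sequences read 5′ to 3′ along the gene. The ALDH1A1 window lies on the minus strand at chr9:72953004-72953303 and the ALDH1A3 window on the plus strand at chr15:100879581-100879880.
ALDH1A1: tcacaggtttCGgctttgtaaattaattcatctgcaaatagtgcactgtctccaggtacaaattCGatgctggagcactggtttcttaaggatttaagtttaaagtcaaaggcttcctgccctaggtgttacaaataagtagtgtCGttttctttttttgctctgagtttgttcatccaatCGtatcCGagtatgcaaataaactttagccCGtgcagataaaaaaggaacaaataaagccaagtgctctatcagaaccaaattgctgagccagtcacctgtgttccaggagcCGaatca
ALDH1A3: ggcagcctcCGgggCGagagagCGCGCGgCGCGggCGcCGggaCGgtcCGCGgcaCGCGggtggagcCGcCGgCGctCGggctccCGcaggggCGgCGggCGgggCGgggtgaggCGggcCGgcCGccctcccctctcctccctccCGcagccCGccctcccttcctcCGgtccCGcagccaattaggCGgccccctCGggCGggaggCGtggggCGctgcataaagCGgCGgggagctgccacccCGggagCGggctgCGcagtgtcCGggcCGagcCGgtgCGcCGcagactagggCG
The ALDH1A1 window has a GC content of 40.3% and 7 CG pairs, and the ALDH1A3 window 81.7% and 46. Over 35116 RefSeq windows of the same length the median GC content was 58.7%, with 90% of windows between 35.7% and 77.7%. The median number of CG pairs was 14, with 90% of windows between 1 and 42. The ALDH1A3 window thus lies above that range on both measures, and the ALDH1A1 window lies within it.

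RARB, a receptor gene that is also a textbook target of retinoic acid, has 4 windows. The third is printed because it holds the paired half-sites known as the classic retinoic acid response element. It lies on the plus strand at chr3:25428013-25428312, and capitals mark motif matches.
RARB: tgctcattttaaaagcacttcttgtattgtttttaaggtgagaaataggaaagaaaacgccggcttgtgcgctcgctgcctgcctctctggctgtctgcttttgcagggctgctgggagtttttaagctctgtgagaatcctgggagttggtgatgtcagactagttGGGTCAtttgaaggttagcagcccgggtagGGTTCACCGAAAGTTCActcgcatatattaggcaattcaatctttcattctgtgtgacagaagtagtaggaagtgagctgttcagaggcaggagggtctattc
The direct repeat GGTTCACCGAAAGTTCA begins 53 bases before the start, and GGGTCA begins 83 bases before it. The pattern GGTTCA, any 5 bases, then AGTTCA, searched on both strands after the other motifs, occurs in 6 of the 35116 windows, or 0.0171%. It overlaps the half-site AGTTCA, which by itself occurs in 10.4% of windows on either strand. Single half-sites were common, with AGGTCA in 13.8% and GGGTCA in 14.1% of windows. Elsewhere AGTTCA matched in ALDH1A2 window 1 and RARB window 4, and AGGTCA matched in DHRS3 window 1 and RARB window 2. Of the forkhead motifs TGTTTAC (3.42% of windows) and TGTTTGC (3.89%), only the latter matched, in ALDH1A2 window 1. The steroid receptor half-site TGTTCT (14.8%) matched in ALDH1A2 window 1 and RARB window 2. None of these letters was in the ALDH1A1, ALDH1A3, ALDH3A2, RARG or RDH11 windows. A match describes the letters and says nothing about binding.

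Library totals ran from 21560090 to 38465155 counts. Levels are given as CPM, counts divided by the TMM-scaled library total within a table, with the values of both libraries. Cell type marker levels and CPM per kilobase use the unscaled library total instead. Changes are log2 fold changes ± SE from edgeR's quasi-likelihood fit over all genes, and a gene was called when its Benjamini-Hochberg adjusted p over all genes was under 0.05. The shFOXA1 libraries stood further apart from each other than those of any other group, with a chi-square per degree of freedom of 11.8 against 2.04 to 4.04. FOXA1 mRNA was lower in shFOXA1 than in shCtrl libraries by a log2 change of -0.47 ± 0.062 (adjusted p = 0.000275). It changed by -0.01 ± 0.033 at 1 h and by 0.23 ± 0.039 at 24 h, which does not measure loss of a degraded protein, and by -0.57 ± 0.036 in R219S. The summed level of 8 luminal markers was 2605 to 8754 CPM, that of 3 basal markers at most 0.763 CPM and that of 4 leukocyte markers at most 0.761 CPM. The 4 fibroblast markers summed to 16.3 to 19.8 CPM in the knockdown and degron time course tables and to 210.6 to 237.3 CPM in the R219S table, where LUM gave 165.3 to 185.4 CPM and COL1A2 was at 0. The part of these cell type markers in the results was not tested. In bulk RNA, fewer cells that express a gene and less RNA per cell cannot be told apart.

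**Figure D1:**
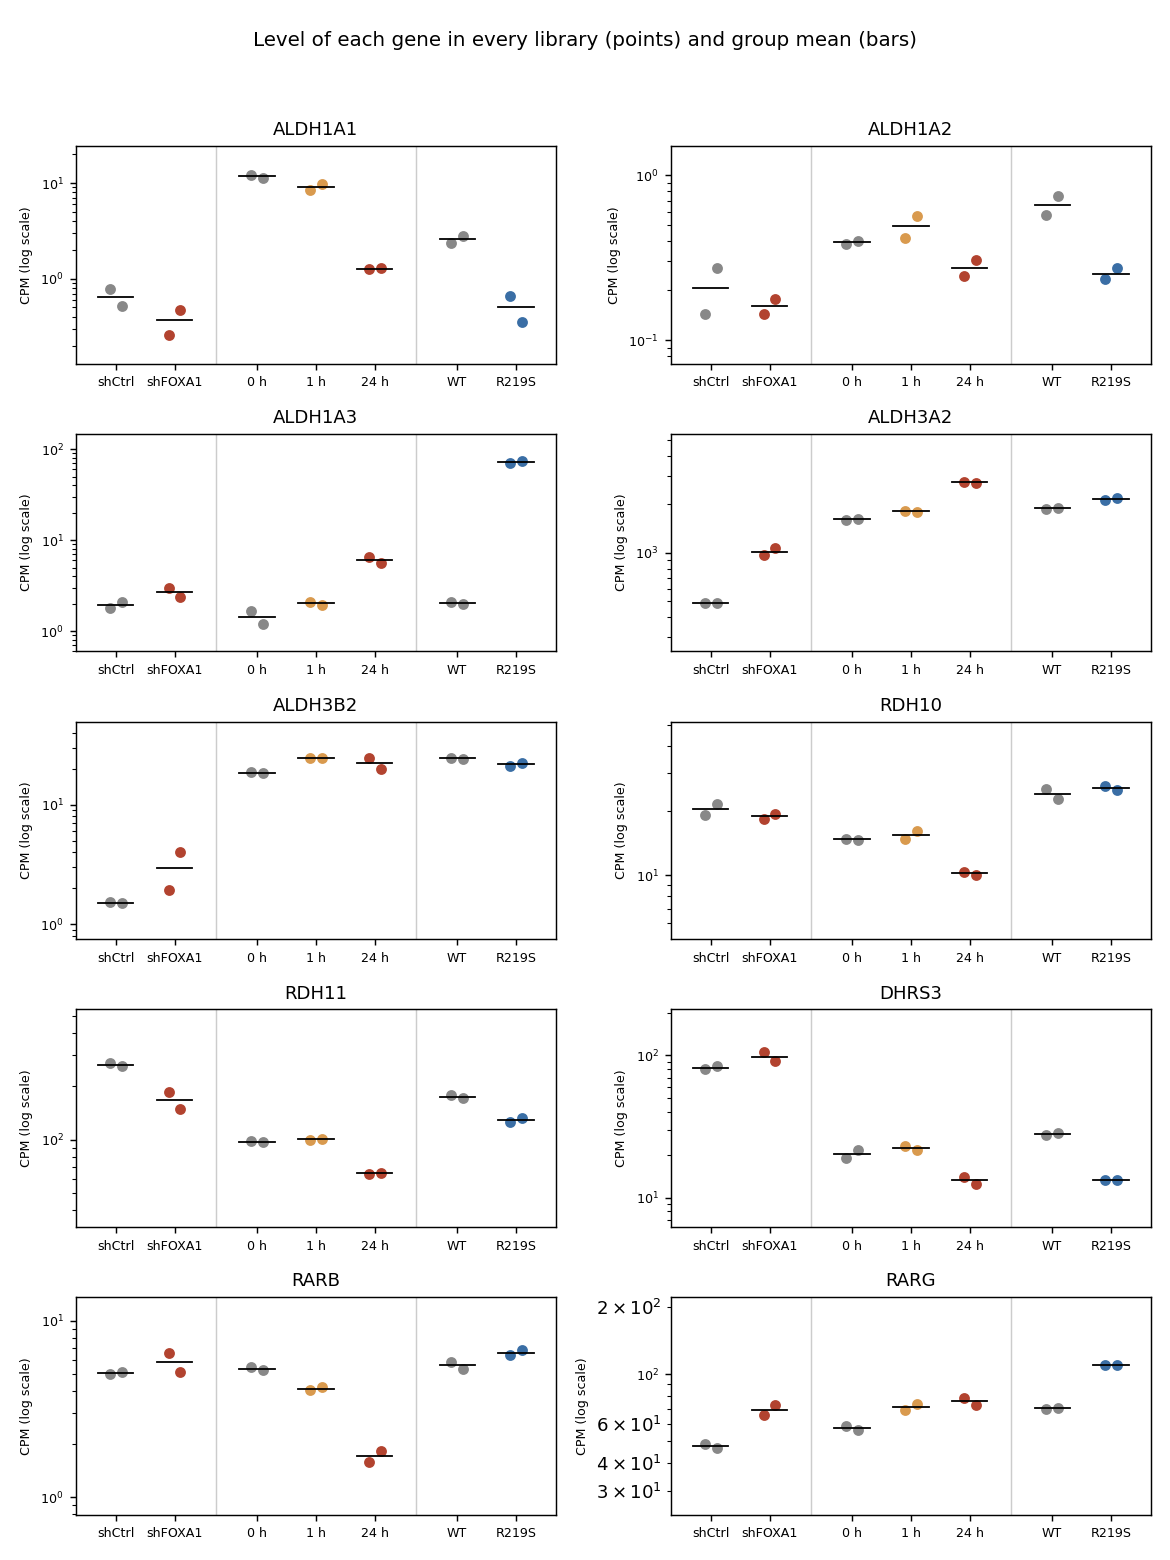
Level of each of the 10 genes in all 14 libraries, in CPM on a log axis. Points are libraries and bars group means of 2 libraries. Vertical lines separate the 3 tables whose levels were scaled separately. ALDH1A3 reaches 71.2 and 73.8 CPM in R219S, and ALDH1A1 goes from 12.2 and 11.4 CPM at 0 h to 1.26 and 1.28 CPM at 24 h.

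ALDH1A1 encodes the retinaldehyde dehydrogenase with the highest count per kilobase of its subfamily in the 0 h libraries. At 0 h it stood at 12.2 and 11.4 CPM, at 1 h at 8.39 and 9.69 CPM, and at 24 h at 1.26 and 1.28 CPM. All 3 times were separate from each other, and the level stepped down at each. The change from 0 h was -0.38 ± 0.11 at 1 h and -3.21 ± 0.16 at 24 h, 9.25-fold lower. Its call at 1 h was lost without dTAG_0h replicate 1 (-0.33), without dTAG_1h replicate 1 (-0.28) and with DESeq2 in place of edgeR (-0.38). WT libraries held 2.39 and 2.78 CPM and R219S libraries 0.654 and 0.35 CPM, a change of -2.38 ± 0.32, 5.19-fold lower. In the hairpin experiment ALDH1A1 was close to the limit of counting, with 27 and 19 counts in shCtrl and 9 and 16 in shFOXA1 libraries. Those libraries did not overlap, yet the change of -0.81 ± 0.48 was not called.

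ALDH1A3, the second retinaldehyde dehydrogenase of the subfamily, went the other way. WT libraries held 2.07 and 1.99 CPM and R219S libraries 71.2 and 73.8 CPM, from 80 and 53 counts against 1524 and 1897. That is a change of 5.15 ± 0.096, 35.5-fold higher, and the largest of any of the 10 genes in any comparison. In the degron time course the gene stood at 1.68 and 1.20 CPM at 0 h, 2.10 and 1.96 CPM at 1 h, and 6.46 and 5.65 CPM at 24 h. Both 24 h libraries were above all earlier ones, a change of 2.08 ± 0.19 or 4.21-fold from 0 h. At 1 h the change of 0.50 ± 0.26 was not called. Hairpin libraries gave 1.79 and 2.12 CPM in shCtrl and 3.00 and 2.38 CPM in shFOXA1, and the change of 0.46 ± 0.23 was not called either.

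An antisense gene, ALDH1A3-AS1, shares 1585 exonic bases with ALDH1A3, 27.5% of its exon length, and whether the counting used strand is not given in the sources used here. Reads of the pair may therefore be mixed. ALDH1A3-AS1 held 3.54 and 3.05 CPM at 0 h, 4.23 and 4.06 CPM at 1 h and 3.68 and 3.98 CPM at 24 h. Its 24 h libraries were above those of 0 h, as for ALDH1A3, and below those of 1 h, unlike ALDH1A3. Hairpin libraries gave 6.59 and 6.31 CPM in shCtrl and 8.53 and 8.0 CPM in shFOXA1, higher in both shFOXA1 libraries as for ALDH1A3. The part of mixed reads in the ALDH1A3 values was not tested. The antisense gene was not matched in the R219S table.

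ALDH1A2, the retinaldehyde dehydrogenase best known from embryonic tissue, was barely detected. Its counts were 5 to 22 in all 14 libraries, and the low-count filter left it out of the hairpin comparison. Changes were 0.32 ± 0.51 at 1 h and -0.50 ± 0.55 at 24 h, neither called. In R219S it was lower by -1.33 ± 0.52, with 22 and 20 counts in WT against 5 and 7. That call was lost without WT replicate 2 (-1.15), without R219S replicate 1 (-1.23), without R219S replicate 2 (-1.45) and with DESeq2 (-1.37).

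The make-up of ALDH1A transcripts was computed as each gene's share of ALDH1A counts per kilobase of exon. In 0 h libraries ALDH1A1 made up 92.7% and 94.0% and ALDH1A3 6.33% and 4.89%. By 24 h the order was reversed, with ALDH1A3 at 70.5% and 67.0% and ALDH1A1 at 27.7% and 30.6%. WT libraries were 66.3% and 69.3% ALDH1A1, whereas R219S libraries were 98.0% and 98.8% ALDH1A3. In shCtrl libraries ALDH1A3 already made up 51.6% and 63.3%, and in shFOXA1 libraries 82.8% and 68.7%. These hairpin shares rest on 94 to 118 ALDH1A counts a library, against 147 and 194 in WT, 238 to 482 in the time course and 1543 and 1913 in R219S.

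**Figure D2:**
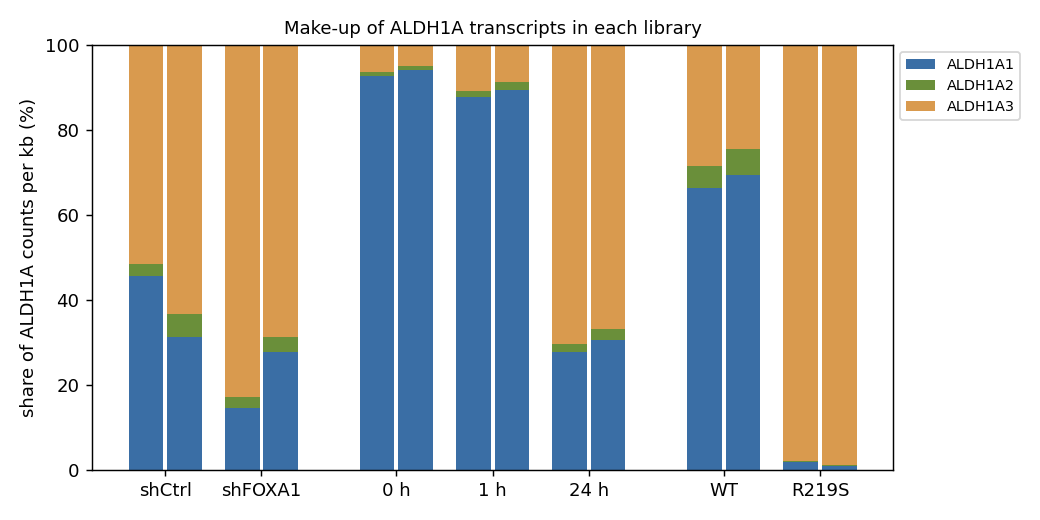
Share of each ALDH1A gene in the ALDH1A counts per kilobase of exon, in percent, with 1 bar a library and 2 libraries a group. ALDH1A1 fills over 92% of both 0 h bars, and ALDH1A3 fills 98.0% and 98.8% of the R219S bars.

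ALDH3A2 encodes fatty aldehyde dehydrogenase, the enzyme deficient in Sjögren-Larsson syndrome, and had the highest CPM per kilobase of the 10 genes in the knockdown and time course groups. It was at 489.9 and 490.3 CPM in shCtrl and 970.1 and 1066.8 CPM in shFOXA1 libraries, a change of 1.06 ± 0.064 or 2.08-fold. At 0 h it was at 1612 and 1614 CPM, at 1 h at 1816 and 1801 CPM and at 24 h at 2742 and 2735 CPM. The times were separate and the level was higher at each step, with changes from 0 h of 0.16 ± 0.024 and 0.76 ± 0.032. WT libraries held 1881 and 1894 CPM and R219S libraries 2145 and 2198 CPM, a change of 0.20 ± 0.035. ALDH3A2 was called higher in all 4 comparisons. Ranked by CPM per kilobase among 52338 features, it was 86th at 0 h and 51st at 24 h. The hairpin table, ranked among 52337 features, placed it 409th in shCtrl and 146th in shFOXA1.

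ALDH3B2, a related gene of the ALDH3 family, showed smaller and less even changes. Hairpin libraries held 1.53 and 1.50 CPM in shCtrl and 1.93 and 3.99 CPM in shFOXA1. The change of 0.96 ± 0.33 was not called, although it was called at 1.40 without shFOXA1 replicate 1, at 0.96 without the filter and at 0.91 with a replicate block. Without shFOXA1 replicate 2 it was 0.35 and not called. At 0 h the gene was at 18.7 and 18.4 CPM, at 1 h at 24.6 and 24.7 CPM, and at 24 h at 24.8 and 19.9 CPM. The 1 h change of 0.41 ± 0.074 was called, also after a correction for GC content and transcript length, which gave 0.29. The 24 h change of 0.27 ± 0.088 was called too, but not without dTAG_24h replicate 1 (0.10), without dTAG_0h replicate 2 (0.26) or with DESeq2 (0.27). R219S libraries (21.2 and 22.5 CPM) were below WT libraries (24.8 and 24.3 CPM) by -0.17 ± 0.075. That call was lost without WT replicate 1 (-0.15), WT replicate 2 (-0.18) or R219S replicate 1 (-0.13), with DESeq2 and without the filter (both -0.17), and with a replicate block (-0.17).

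RDH10 is the retinol dehydrogenase that carries out the first oxidation in most tissues. At 24 h it held 10.4 and 10.1 CPM, below the 14.8 and 14.7 CPM of 0 h and the 14.8 and 16.1 CPM of 1 h. The change from 0 h was -0.53 ± 0.095 at 24 h and 0.07 ± 0.088 at 1 h. Hairpin (-0.11 ± 0.10) and R219S libraries (0.08 ± 0.074) overlapped with their controls, and neither change was called.

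RDH11, the reductase, was lower in 3 of the 4 comparisons. Levels were 270.6 and 258.8 CPM in shCtrl against 185.8 and 149.2 CPM in shFOXA1, a change of -0.66 ± 0.096. In the time course they were 98.1 and 96.8 CPM at 0 h, 99.8 and 101.1 CPM at 1 h and 64.4 and 64.9 CPM at 24 h. The 24 h libraries lay below all others, with a change of -0.59 ± 0.045 against 0.04 ± 0.039 at 1 h. WT libraries held 177.4 and 170.7 CPM and R219S libraries 125.6 and 132.4 CPM, a change of -0.43 ± 0.042.

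DHRS3 is a retinaldehyde reductase and, by textbook, a gene that retinoic acid induces. R219S libraries held 13.3 and 13.2 CPM and WT libraries 27.4 and 28.6 CPM, a change of -1.08 ± 0.082 or 2.11-fold lower. At 24 h the gene was at 14.0 and 12.4 CPM, below the 19.0 and 21.7 CPM of 0 h and the 23.0 and 21.5 CPM of 1 h, a change of -0.62 ± 0.092 from 0 h. The 1 h change of 0.13 ± 0.077 was not called. In the hairpin experiment DHRS3 was slightly higher, with 105.4 and 91.1 CPM in shFOXA1 against 80.2 and 84.1 CPM in shCtrl (0.26 ± 0.076). That call was lost without shCtrl replicate 1 (0.22), without shCtrl replicate 2 (0.29) and after a correction for GC content and transcript length (0.21).

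Within the time course RARB was lowest at 24 h. It stood at 5.49 and 5.24 CPM at 0 h, 4.05 and 4.21 CPM at 1 h and 1.59 and 1.82 CPM at 24 h, with no overlap between times. The 24 h change was -1.65 ± 0.18, 3.13-fold lower, and the 1 h change of -0.38 ± 0.16 was not called. R219S libraries held 6.44 and 6.81 CPM against 5.84 and 5.37 CPM in WT (0.24 ± 0.14), and shFOXA1 libraries 6.57 and 5.12 CPM against 5.03 and 5.14 CPM in shCtrl (0.20 ± 0.17). Neither of these changes was called. RARB shares 28 exonic bases with TOP2B on the opposite strand, 0.8% of its exon length, and TOP2B counts were 10834 to 13775 in the knockdown and time course tables.

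RARG, the other receptor gene, was higher in all 4 main comparisons. It was at 48.5 and 46.8 CPM in shCtrl and 65.6 and 72.9 CPM in shFOXA1 libraries (0.54 ± 0.073). Levels were 58.3 and 56.1 CPM at 0 h, 69.2 and 73.3 CPM at 1 h and 78.1 and 72.7 CPM at 24 h. Both later times lay above 0 h, by 0.32 ± 0.047 and 0.40 ± 0.050, and overlapped with each other. The 1 h change was 0.20 after the GC and length correction and was still called. WT libraries held 69.8 and 70.7 CPM and R219S libraries 109.4 and 110.3 CPM (0.65 ± 0.047).

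**Figure D3:**
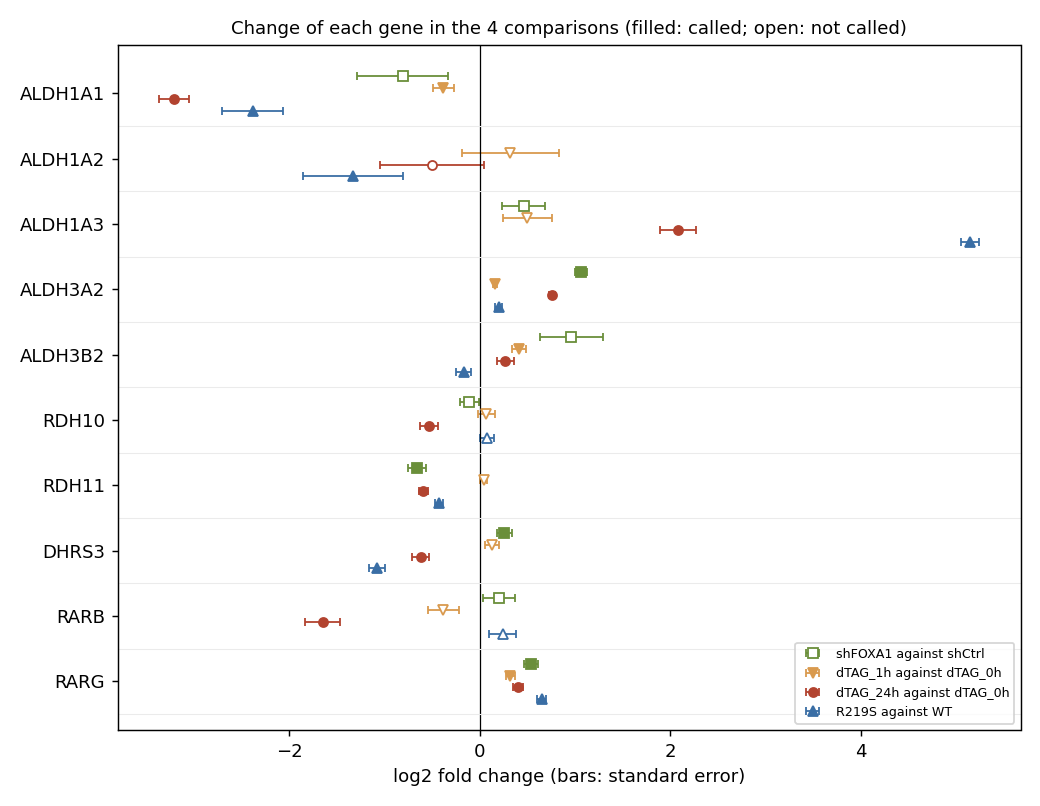
Log2 fold change of the 10 genes in the 4 main comparisons, with standard errors as bars. Filled symbols were called and open ones not. ALDH1A3 at 5.15 in R219S and ALDH1A1 at -3.21 at 24 h lie furthest from 0, while ALDH1A3, ALDH3A2 and RARG lie to the right of 0 in all 4.

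Counted together, 4 of the 9 genes tested were called in shFOXA1, 3 higher and 1 lower, where 23.6% of all genes tested were called, 11.3% higher and 12.3% lower. At 1 h, 4 of 10 were called, 3 higher and 1 lower, beside 19.8% of all genes (10.7% higher, 9.12% lower). At 24 h, 9 of 10 were called, 4 higher and 5 lower, beside 46.9% (22.1% and 24.8%). In R219S, 8 of 10 were called, 3 higher and 5 lower, beside 62.1% (30.5% and 31.6%). Between 24 h and 1 h, 7 of 10 were called, 2 higher and 5 lower, beside 45.7% (21.2% and 24.5%). Because the genes were chosen with these changes known, nothing is read from the counts against the shares. The median log2 change of the genes tested was 0.26, 0.15, -0.52, -0.05 and -0.62 in these 5 comparisons, beside 0.01, 0.00, 0.01, 0.00 and 0.00 for all genes. The 1 h, 24 h and 24 h against 1 h comparisons share libraries, so their values stand side by side only.

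The control groups differed among themselves. ALDH1A1 averaged 0.648 CPM in shCtrl, 11.8 CPM at 0 h and 2.58 CPM in WT, and ALDH3B2 1.51, 18.5 and 24.6 CPM. DHRS3 averaged 82.2, 20.3 and 28.0 CPM and RDH11 264.7, 97.4 and 174.1 CPM in the same order. These tables were scaled separately, so the differences were not tested. RARB was nearly level, at 5.08, 5.36 and 5.60 CPM.

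The wider retinoid pathway was read from 66 other genes and the rest of the ALDH superfamily from 14, listed by role, also with earlier results of these data known. In the hairpin comparison 14 of 42 retinoid genes tested were called, 10 up and 4 down, beside 23.6% of all genes (11.3% and 12.3%). The count was 7 without shCtrl replicate 1 and 5 without shCtrl replicate 2, and it ranged up to 19 with other libraries left out. CRABP2, which carries retinoic acid to the nucleus, rose by 1.29 ± 0.098 from 13.7 and 12.5 to 30.7 and 33.6 CPM (adjusted p = 8.06e-06 by edgeR's quasi-likelihood test, as are all adjusted p-values here). RDH5, a retinol dehydrogenase, rose by 0.67 ± 0.13 (adjusted p = 0.00294). RXRA, the partner of the RARs, rose by 0.97 ± 0.18 (adjusted p = 0.0194), a call lost without shCtrl replicate 1 (1.04, adjusted p = 0.101) or shCtrl replicate 2 (0.91, adjusted p = 0.16). TGM2, a retinoic acid responsive transglutaminase gene, had 17 and 30 counts in shFOXA1 against 0 and 1 in shCtrl, a count ratio of 48.2 with a 95% interval of 8.24 to 1945 that covers counting error only (adjusted p = 0.00132). Among the 4 called lower, GPRC5A, a retinoic acid responsive gene, changed by -1.63 ± 0.39 (adjusted p = 0.00981). NCOA2, a coactivator gene, changed by -0.32 ± 0.063 (adjusted p = 0.0036). NR2F1, also retinoic acid responsive, changed by -0.25 ± 0.081 (adjusted p = 0.039). The GPRC5A call was lost without shCtrl replicate 1 (-1.33) and that of NCOA2 without shCtrl replicate 2 (-0.26). NR2F1 lost its call without either shCtrl library, without shFOXA1 replicate 2 (-0.16) and with DESeq2. Of the 14 other ALDH genes 2 were called, both up, beside 11.3% of all genes called higher. The split was 1 up and 1 down with DESeq2, and 2 up and 2 down without shFOXA1 replicate 1 or without shFOXA1 replicate 2. ALDH1L2, at 141.5 and 146.4 CPM in shCtrl and 94.6 and 59.5 CPM in shFOXA1, was not called here (-0.90 ± 0.29, adjusted p = 0.164) but was called in those 3 fits. The mitochondrial ALDH5A1 rose by 0.39 ± 0.068 (adjusted p = 0.00168). ALDH3B1 rose by 0.61 ± 0.17. That call was lost without shFOXA1 replicate 2 (0.46), without either shCtrl library (0.57 and 0.64) and with DESeq2 (0.60).

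After 1 h of degradation 14 of 41 other retinoid genes were called, 7 up and 7 down, beside 19.8% of all genes (10.7% higher, 9.12% lower). The split was 3 up and 6 down with DESeq2, and 3 up and 8 down after the GC and length correction. Changes correlated with GC content across genes at a Spearman's rho of 0.323 in this comparison. TTR, which encodes the blood carrier of retinol-binding protein, had 6 and 12 counts against 30 and 32 at 0 h, a change of -1.74 ± 0.48 (adjusted p = 0.00416). It had the largest called change on these lists at 1 h, and the call was lost without dTAG_1h replicate 1 (-1.33, adjusted p = 0.139). The coactivator genes NCOA3 (-0.31 ± 0.049, adjusted p = 4.44e-07), NCOA2 (-0.25 ± 0.046, adjusted p = 1.37e-05) and NCOA1 (-0.26 ± 0.055, adjusted p = 0.000126) all fell. NCOR1, also among the receptors and coregulators, changed by -0.22 ± 0.037 (adjusted p = 2.84e-06). That call was lost after the GC and length correction (-0.07, adjusted p = 0.165). NR2F1, an orphan receptor gene, fell by 0.32 ± 0.08 on the log2 scale (adjusted p = 0.00158), and GPRC5A, a retinoic acid induced membrane protein gene, fell by 0.71 ± 0.15 on that scale (adjusted p = 0.000146). RXRA rose by 0.18 ± 0.034 (adjusted p = 3.51e-05). CRABP2 rose by 0.17 ± 0.038 (adjusted p = 0.000398), a call lost after the GC and length correction (0.09, adjusted p = 0.0732). Of 14 other ALDH genes ALDH16A1 and ALDH9A1 were called, with changes of 0.20 ± 0.061 and 0.11 ± 0.033. Neither was called by DESeq2 or without dTAG_1h replicate 2 (0.17 and 0.10), and ALDH9A1 was not called without dTAG_1h replicate 1 (0.12). ALDH16A1 also lost its call after the GC and length correction (0.06, adjusted p = 0.577).

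At 24 h, 23 of 41 other retinoid genes were called, 15 up and 8 down, beside 46.9% of all genes (22.1% and 24.8%). CYP26B1, which degrades retinoic acid, rose by 2.27 ± 0.12 from 3.36 and 3.50 CPM to 16.8 and 16.2 CPM (adjusted p = 1.29e-16). It was the largest rise on these lists. CRABP2 rose by 0.75 ± 0.041 (adjusted p = 3.73e-16), whereas FABP5, which carries retinoic acid toward PPARD, fell by 1.49 ± 0.08 on the log2 scale (adjusted p = 3.2e-16). PPARD itself rose by 0.74 ± 0.048 (adjusted p = 2.98e-14). Of the 10 tested receptors and coregulators 7 were called higher, beside 22.1% of all genes, and the other 3 were not called. RXRA changed by 0.69 ± 0.039 and RXRB by 0.38 ± 0.044, while RARA (0.08 ± 0.10, adjusted p = 0.569) was not called. Among genes that respond to retinoic acid, BHLHE40 rose by 1.49 ± 0.19 (adjusted p = 9.5e-08) and NR2F1 fell by 0.39 ± 0.084 on the log2 scale (adjusted p = 0.000233).

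Of the 14 other ALDH genes 1 rose and 6 fell at 24 h, beside 22.1% and 24.8% of all genes. That is 7 of 14 called beside 46.9% of all genes, and the median log2 change of the 14 was -0.12. ALDH1L2, a mitochondrial folate enzyme gene, fell from 34.7 to 13.9 CPM on average, a change of -1.32 ± 0.078 (adjusted p = 3.51e-15). ALDH1B1, whose mitochondrial product can also oxidise retinaldehyde, changed by -0.68 ± 0.068 (adjusted p = 5.52e-10). ALDH18A1, of proline synthesis, changed by -0.57 ± 0.042 (adjusted p = 5.7e-13) and ALDH4A1, of proline breakdown, by -0.41 ± 0.077 (adjusted p = 5.39e-05).

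In R219S, 30 of 40 other retinoid genes were called, 15 up and 15 down, beside 62.1% of all genes (30.5% and 31.6%). BHLHE40 rose by 2.67 ± 0.12, from 2.77 to 17.8 CPM on average (adjusted p = 5.97e-79), and RDH5 by 1.53 ± 0.12 (adjusted p = 7.4e-31). STRA6, the cell surface receptor for retinol-binding protein, had 19 counts in each R219S library against 0 and 1 in WT. Its count ratio of 52.0 has a 95% interval of 8.79 to 2108 that covers counting error only (adjusted p = 2.22e-09). CRABP2 rose by 0.50 ± 0.059 (adjusted p = 8.48e-16) and RXRA by 0.51 ± 0.05 (adjusted p = 4.46e-22). CYP26B1 held 1.87 and 1.25 CPM against 0.597 and 0.676 CPM in WT (1.28 ± 0.34, adjusted p = 0.000381), and its call was lost without R219S replicate 1 (0.98, adjusted p = 0.0536).

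Other retinoid genes fell in R219S. CRABP1, a retinoic acid binding protein of the cytoplasm, changed by -1.90 ± 0.18 (adjusted p = 1.21e-22). HSD17B6, which oxidises retinoids and steroids, changed by -1.16 ± 0.19 (adjusted p = 1.88e-08). Of the 14 other ALDH genes 3 rose and 6 fell, beside 62.1% of all genes called (30.5% higher, 31.6% lower). ALDH2, the acetaldehyde dehydrogenase of alcohol metabolism, changed by -2.26 ± 0.20, from 5.90 to 1.22 CPM on average (adjusted p = 1.41e-25). ALDH6A1, of valine breakdown, changed by -0.68 ± 0.045 (adjusted p = 7.21e-44) and ALDH1L2 by -0.58 ± 0.041 (adjusted p = 2.74e-38), while ALDH16A1 rose by 0.38 ± 0.067 (adjusted p = 7.19e-08).

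**Figure D4:**
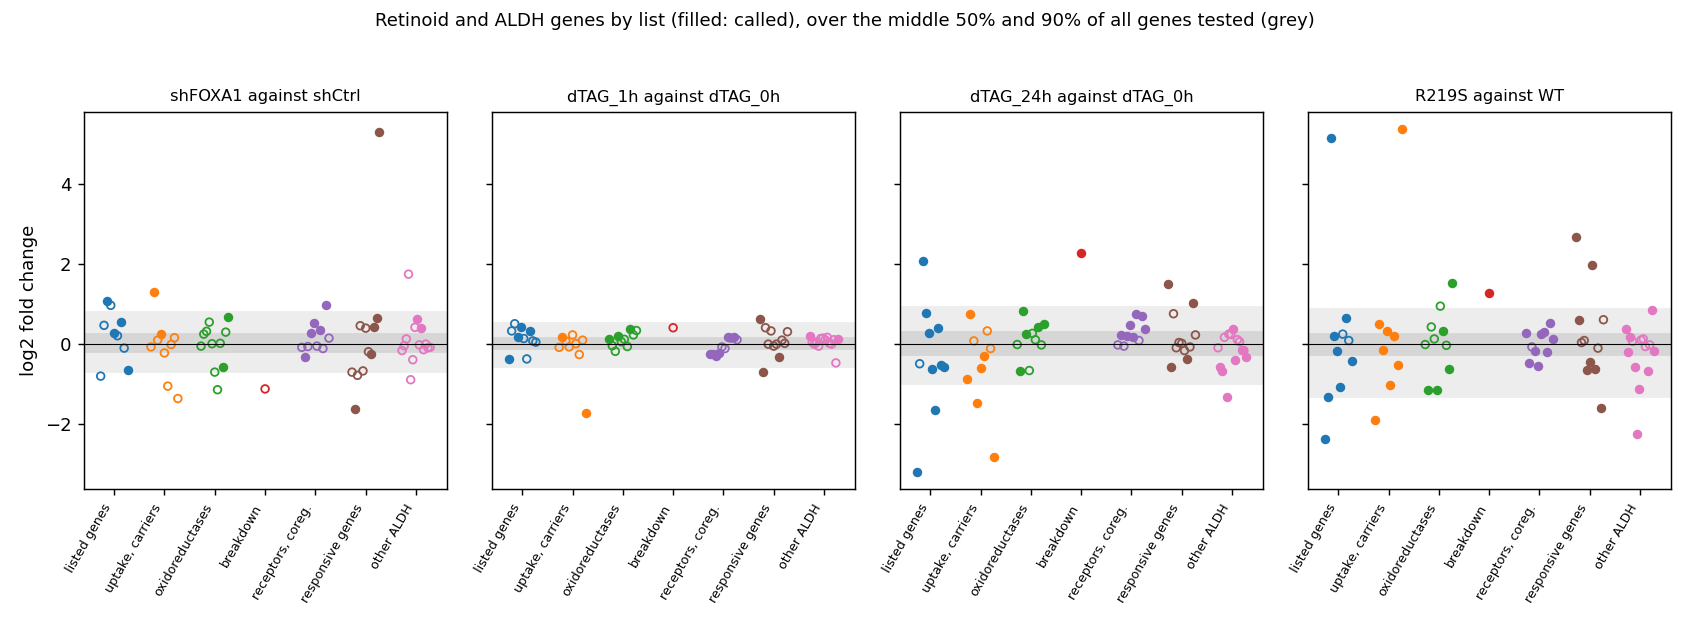
Log2 fold change of the 10 genes, the other retinoid genes by role and the other ALDH genes in each comparison, with the middle 50% and 90% of all genes tested in grey. Filled points were called. CYP26B1 at 2.27 and ALDH1A3 at 2.08 are the highest points of the 24 h panel. The points of TGM2 (5.30, shFOXA1) and STRA6 (5.36, R219S) are fitted values of genes with 1 count in their control group.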

How the data were processed

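RNA-seq counts per gene in 14 libraries were analysed from 4 tables of raw counts that the authors deposited. Per the submitters' processing notes the tools were STAR, featureCounts and DESeq2 and the build hg19, with versions and strand setting not given in the sources used here. The knockdown table held 57904 features, each of the 2 degron time course files 57905, and the R219S one 20243 symbols, 26 of them date-like. The 0 h counts were identical in both degron tables for all 57905 features. No gene coordinates of the counts are given, and promoter windows come from RefSeq on GRCh38.p14.

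Counts were fitted with edgeR 4.0.16 in R 4.3.3 after filterByExpr and TMM scaling, on the 4 libraries of each comparison, or on all 6 degron time course libraries for 24 h against 1 h. Benjamini-Hochberg adjustment ran over all genes of a fit, and genes under 0.05 were called. The script was tested on simulated counts. The 10 genes and all gene lists were chosen with earlier results of these data known. Other genes were named by rule, up to 4 higher and 4 lower per list and comparison with the largest absolute change among those called, and some are not reported here. Intervals of count ratios are exact, at 95%, and cover counting error only. Alternatives were RLE scaling, DESeq2 1.42.0, other filters, a replicate block and each library left out. A GC and length correction was added after seeing the data.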

Additional observations from a re-analysis of the deposited data

Results flagged for a closer look

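The changes from 0 h differed between 24 h and 1 h for 26 genes of the lists given here, by the test of the difference itself in the joint fit of the 6 time course libraries (edgeR, called at an adjusted p under 0.05, where 45.7% of all genes tested were called). Values are log2 changes at 24 h minus those at 1 h, and those of the 7 report genes among them are a description, since they were chosen with results known. Among the enzymes and receptors of the report the differences were -2.83 for ALDH1A1, 1.58 for ALDH1A3, 0.60 for ALDH3A2, -0.60 for RDH10, -0.64 for RDH11, -0.75 for DHRS3 and -1.27 for RARB.

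Carriers and lipid enzymes gave -0.78 for CRABP1, 0.58 for CRABP2, -1.41 for FABP5, -0.84 for LIPE and -0.30 for PNPLA4. Oxidoreductases gave 0.17 for RDH13, -0.15 for ADH5, -0.63 for AKR1C3 and 1.02 for the carotenoid-cleaving BCO2, and CYP26B1 gave 1.86. Receptors and coregulators gave 0.52 for RXRA, 0.58 for PPARD and 0.46 for NCOA2, and the retinoic acid responsive BHLHE40 gave 0.87. Other ALDH genes gave -0.68 for ALDH1B1, -1.25 for ALDH1L2, 0.26 for ALDH3B1, -0.56 for ALDH4A1 and -0.62 for ALDH18A1.

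Some of these calls depended on the method or rested on single libraries. With DESeq2 the difference was 0.27 for ALDH3B1 (adjusted p = 0.122). After the GC and length correction, edgeR gave 0.21 for ALDH3B1 (adjusted p = 0.0927) and -0.08 for ADH5 (0.111). Without dTAG_24h replicate 2 the difference was -0.50 for CRABP1 (adjusted p = 0.153), 0.61 for BCO2 (0.234), 0.13 for RDH13 (0.0881) and 0.24 for ALDH3B1 (0.139). Leaving out dTAG_24h replicate 1 gave -0.57 for AKR1C3 (adjusted p = 0.0619), -0.11 for ADH5 (0.0649) and 0.27 for ALDH3B1 (0.0904). Leaving out dTAG_1h replicate 1 gave -0.45 for CRABP1 (adjusted p = 0.254) and 0.13 for RDH13 (0.14), and leaving out dTAG_1h replicate 2 gave -0.11 for ADH5 (0.131) and 0.18 for ALDH3B1 (0.303).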

How the results depend on the processing

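No called change of the 10 genes or of the other named genes reversed its direction under any alternative run. Of 496 recomputed changes of the 10 genes 455 stayed within the replicate spread, and 468 of 493 stayed on the same side of the call threshold. For the other named genes 1045 of 1143 recomputed calls held and 98 were lost. Leaving out libraries moved the hairpin comparison most. Its 4506 calls over all genes became 1713 to 6793, the lowest when shCtrl replicate 2 was left out (2421 for shCtrl replicate 1) and the highest without shFOXA1 replicate 1. The calls of other retinoid genes ranged from 5 to 19 around 14, and those of other ALDH genes from 1 to 4 around 2. At 1 h the 3850 calls ranged from 2232 to 3422 with a library left out (2232 without dTAG_1h replicate 2, 2428 without dTAG_1h replicate 1) and were 2044 with DESeq2. DESeq2 called 9 other retinoid genes, against 14 by edgeR, and 0 of the 14 other ALDH genes there (2 at an unadjusted p under 0.05), where edgeR called 2. With a library left out the edgeR count of ALDH genes ranged from 0 to 3, the lowest without dTAG_1h replicate 2 (3 at an unadjusted p under 0.05). The cause of these shifts was not tested. With a replicate block the calls over all genes were 4412 (hairpin), 3909 (1 h), 9868 (24 h), 8441 (R219S) and 9296 (24 h against 1 h), and those of the 10 genes 5, 4, 9, 7 and 7. Deviations of same-numbered libraries correlated at 0.0338, 0.0251, 0.0181 and -0.016 in the 4 main comparisons, so the numbers were not taken as pairs. ALDH1A2, with 5 to 22 counts a library, and ALDH1A1 in the hairpin libraries are limited by depth.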

Other observations

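Genes whose levels followed the pair of genes with the largest changes were ranked over 17970 genes by Pearson's r of log2(CPM + 0.5), each relative to the control mean of its table, over the 10 hairpin and time course libraries. The libraries share controls and scaling, and those of 24 h stand apart, so r is only a description. Most like ALDH1A3 were TMEM184A (r = 0.99), BAIAP3 (0.986) and PLEC (0.985). BAIAP3 averaged 36.2 CPM at 0 h, 43.1 CPM at 1 h and 116.7 CPM at 24 h, and PLEC, which encodes plectin, 264.4, 298.2 and 402.3 CPM. Most like ALDH1A1 were ELAVL2 (0.997), PLOD2 (0.992) and ASAH1 (0.991). PLOD2, a collagen lysine hydroxylase gene, averaged 184.8 CPM at 0 h, 170.9 CPM at 1 h and 53.7 CPM at 24 h, and ELAVL2, a neuronal RNA-binding protein gene, 7.66, 6.97 and 2.91 CPM.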
